A study of Mus musculus with 3 samples.

Results

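The 9 complement genes described here are the C1q chain genes C1qa, C1qb and C1qc, the components C2, C3 and C4b, the anaphylatoxin receptor genes C3ar1 and C5ar1, and Serping1, which encodes the C1 inhibitor. They were chosen by symbol from the 28001 features of a single-cell count matrix, and all 9 were listed there. The cells came from Thy1::ChR2 mice, in which the neuronal Thy1 promoter drives channelrhodopsin-2, and from their nucleus accumbens. The tissue came from coronal dissections of 400 um and had been labelled with FLiCRE, a molecular recorder of calcium, while ChR2 was stimulated with light. All 3 samples share this strain, labelling and stimulation, so there is no unlabelled or unstimulated group, and the comparisons below are between cell classes of the same libraries.

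Complement is a cascade of secreted proteins that tag targets for removal. C1q, built from 3 different chains, starts the classical pathway, in which C4 and C2 are cleaved to form the enzyme that splits C3, and the released fragments C3a and C5a act through the receptors C3ar1 and C5ar1. The C1 inhibitor holds the C1 proteases in check. In the brain C1q and C3 are best known for marking synapses and debris for uptake by microglia.

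The C1q genes are neighbours on the minus strand of mouse chromosome 4 (GENCODE M21, mm10), C1qb at chr4:136880129-136886187, C1qc at chr4:136889804-136893065 and C1qa at chr4:136895917-136898803, within 18675 bases. C4b lies at chr17:34728380-34743882, C2 at chr17:34862604-34898265 and C3 at chr17:57203970-57228136. C3ar1 is at chr6:122847138-122856161, C5ar1 at chr7:16246743-16259540 and Serping1 at chr2:84765387-84775444, and these genes are on the minus strand too. C2 overlaps Gm20547 on the same strand and Zbtb12 on the other strand, so its few counts are uncertain.

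The RefSeq promoter table (GRCm38.p6) held 5 of the 9 genes, and the stretches before the transcripts of C1qb, C1qc and C3 are shown as examples, 2 of the C1q genes with like levels across the classes below and C3, which was sparse. C1qb is chr4:136886201-136886450, C1qc chr4:136893066-136893164 and C3 chr17:57228137-57228386, all on the minus strand and read 5′ to 3′. Capitals mark the ETS core AGGAAGT (here as its reverse complement ACTTCCT) in the C1q genes and the C/EBP-type pattern TTGCNNAA in C3.
C1qb: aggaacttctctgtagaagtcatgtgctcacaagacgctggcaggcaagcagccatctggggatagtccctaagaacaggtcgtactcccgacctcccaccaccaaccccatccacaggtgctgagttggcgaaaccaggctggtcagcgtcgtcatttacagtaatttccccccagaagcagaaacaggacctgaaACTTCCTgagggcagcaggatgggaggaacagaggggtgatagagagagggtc
C1qc: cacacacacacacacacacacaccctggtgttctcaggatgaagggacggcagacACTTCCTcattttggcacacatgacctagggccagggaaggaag
C3: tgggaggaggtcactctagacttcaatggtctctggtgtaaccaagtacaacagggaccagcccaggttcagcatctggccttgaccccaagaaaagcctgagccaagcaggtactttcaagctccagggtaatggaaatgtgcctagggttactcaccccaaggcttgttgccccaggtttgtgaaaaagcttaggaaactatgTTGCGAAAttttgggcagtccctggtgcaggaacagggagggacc
Both strands of the 250 bases before each RefSeq start were searched, including any that lie inside an annotated GENCODE transcript and are not printed (151 in C1qc), and AGGAAGT and TTGCNNAA were picked after these promoters had been read. AGGAAGT was found in 7.69% and TTGCNNAA in 9.57% of 32841 promoters. The longer GAGGAAGT, which contains AGGAAGT, was found in 2.44% of them and in C1qc. C3ar1 held none of the patterns. In C5ar1 AGGAAGT was at 2 positions, both among the 202 of its 250 bases that lie inside a transcript. A match is a run of letters and no measure of binding.

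The deposited cells numbered 2717, 6627 and 2281 in libraries 1 to 3, and 2306, 5783 and 1834 were kept, with a median of 985.5, 2084 and 2674 UMIs (unique molecular identifiers, here counted RNA molecules) per kept cell. The libraries shared 13, 7 and 22 barcodes in the 3 pairs. A cell was placed in a class when it had a UMI of at least 3 of the 8 markers of that class and at least 2 more markers than of any other class. This gave 317 microglia-like, 276 macrophage-like, 1010 astrocyte-like, 1284 oligodendrocyte-like, 90 oligodendrocyte precursor-like, 462 endothelial-like, 255 mural-like, 45 fibroblast-like, 49 T cell-like and 4475 neuron-like cells, named below without the suffix. The gate is a range and not a type, and 103 microglia and 128 macrophages lay at its limit. No complement gene was a gate marker. The summed microglia markers stood at 10177 CPM (UMIs of the gene scaled to a common total of the class, counts per 1e6) in microglia and 852 in macrophages, and the macrophage markers at 2622 and 37564. The macrophage class also held monocyte and neutrophil RNA (4 of 5 listed genes, 290 to 2167 CPM) and dendritic cell RNA (6 of 6, 180 to 422 CPM), whereas microglia held 12.9 CPM of the dendritic list, and the part of these cells in the macrophage values was not tested. The 1660 unassigned cells carried 30.1% of all C1qa UMIs, 30.8% of C1qb and 31.1% of C1qc. Of them, 77 phagocytes between the microglia and macrophage gates had 7123 ± 344 CPM of C1qa (SD, n = 3 libraries).

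**Figure D1:**
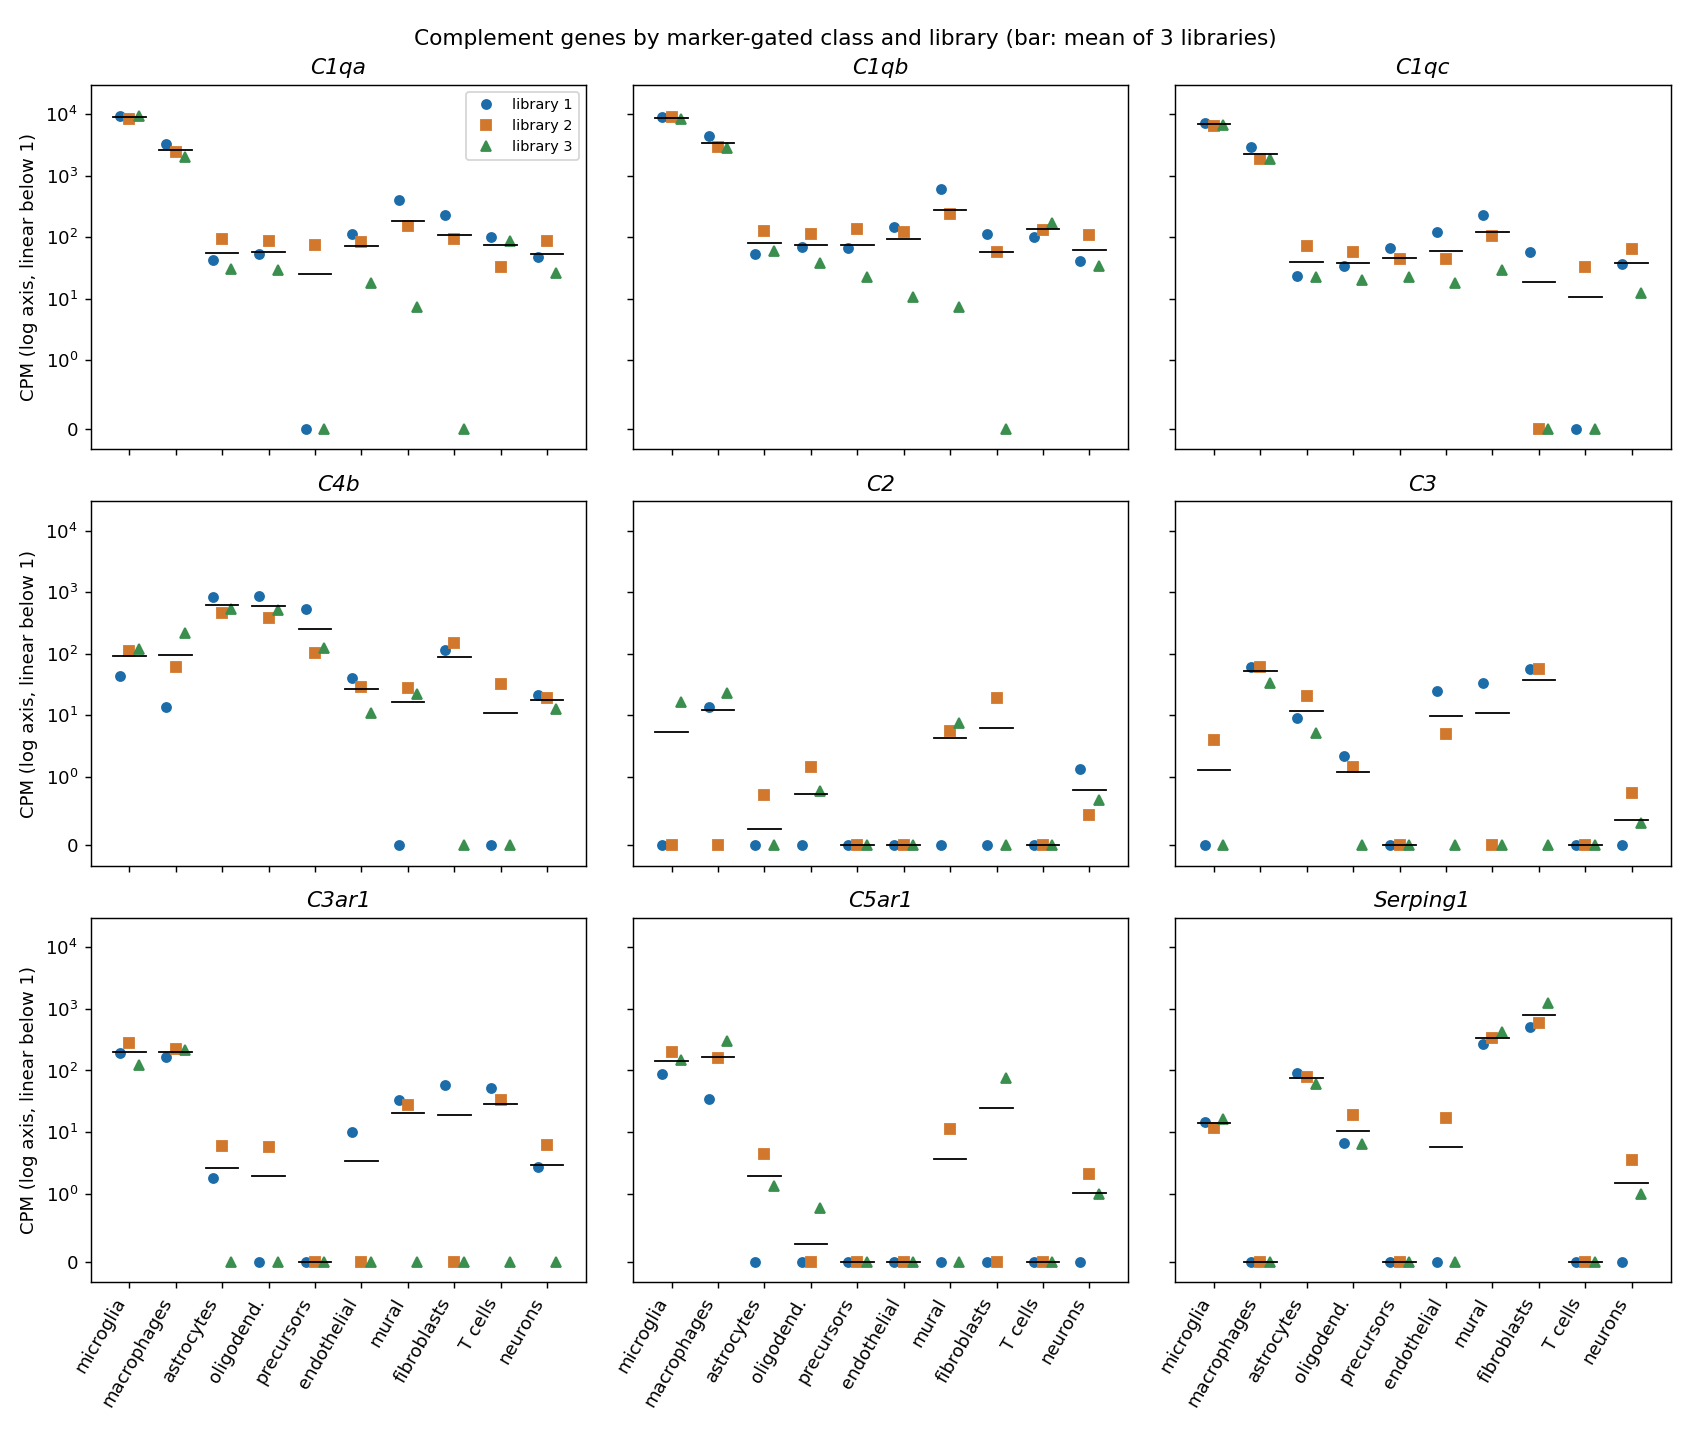
CPM of each gene (log axis, linear below 1) in each marker-gated class, 1 symbol per library and a bar at the mean of 3 libraries. The C1q genes are highest in microglia and next in macrophages, C4b in astrocytes and oligodendrocytes, both receptors in the 2 phagocyte classes, and Serping1 in fibroblasts and mural cells.

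The C1q genes had the highest class CPM of the 9 genes and were concentrated in the phagocytes. C1qa, which encodes the A chain, stood at 9523, 8392 and 9365 CPM in the microglia of libraries 1, 2 and 3 and at 3297, 2424 and 2042 CPM in the macrophages. C1qb, for the B chain, was at 9170, 9072 and 8310 CPM in microglia and at 4458, 2916 and 2875 CPM in macrophages. C1qc, for the C chain, was at 7330, 6565 and 6784 CPM in microglia and at 2938, 1911 and 1894 CPM in macrophages. For all 3 genes every microglia value lay above every macrophage value, and every macrophage value lay above those of all other gated classes. The gate leaves out the 77 phagocytes between microglia and macrophages. Their means were 7123, 8332 and 5538 CPM for C1qa, C1qb and C1qc.

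In edgeR's quasi-likelihood test with the library as a block, C1qa was higher in microglia than in macrophages by 1.69 on the log2 scale (SE 0.16, adjusted p = 2.52e-08). The difference was 1.26 for C1qb (SE 0.15, adjusted p = 1.09e-06) and 1.504 for C1qc (SE 0.15, adjusted p = 3.62e-08). These were 3 of the 6 members tested, where 19.5% of the 2327 genes tested passed in either direction. The median log2 difference was 0.68 over the 6 members and -0.05 over all genes tested. Without the library block the edgeR adjusted p was 0.0602 for C1qa, 0.201 for C1qb and 0.0919 for C1qc, and with all classes in 1 fit it was 0.152 for C1qb. With the block, the p-values measure the spread of the class difference across libraries. Nothing in the labels says that the libraries came from separate animals.

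Per cell, the classes differed in how many chains were seen. All 3 chains had a UMI in 94.6%, 88.7% and 85.3% of microglia in libraries 1 to 3, and no microglia lacked all 3. Among macrophages 54.9%, 45.1% and 15 of the 30 cells of library 3 had all 3 chains, while 31.0%, 24.1% and 26.7% had none. The median depth was 1010 UMIs in microglia and 1118 in macrophages. Thinned to 1000 UMIs per cell, which left out 30, 91 and 36 microglia and 60, 48 and 8 macrophages of the 3 libraries, C1qa was seen in 99.3% ± 1.2 of microglia and 60.2% ± 5.7 of macrophages (SD, n = 3 libraries).

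**Figure D2:**
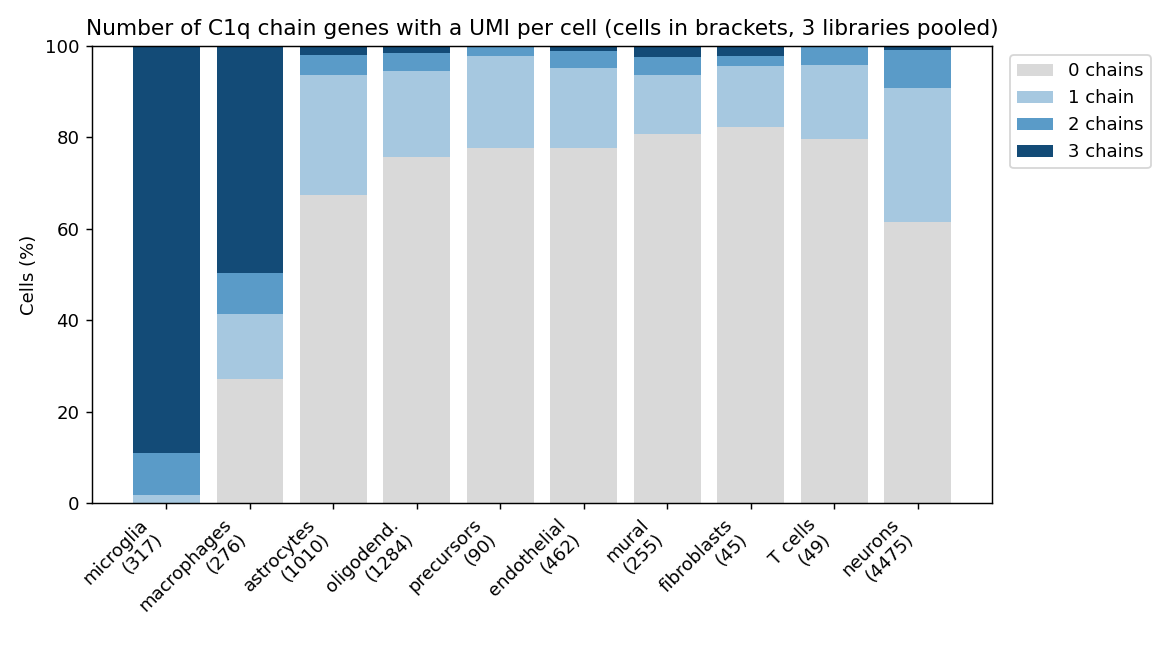
Share of cells (%) with a UMI of 0, 1, 2 or 3 of the C1q chain genes in each class, over the pooled libraries. All 3 chains were seen in 89.0% of microglia and 49.6% of macrophages, against 0.983% of neurons.

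In neurons, astrocytes and oligodendrocytes C1q counts were far below those of the phagocytes and moved with the library. In neurons C1qa was at 47.8, 88.4 and 26.4 CPM, in astrocytes at 43.6, 92.8 and 30.1 CPM and in oligodendrocytes at 54.4, 87.6 and 29.2 CPM. Library 2 was highest and library 3 lowest in all 3 classes, and within a library the classes lay close together. In mural cells C1qa was at 400, 156 and 7.49 CPM and in endothelial cells at 115, 83.4 and 17.95 CPM, where library 1 was highest. A C1qa UMI was seen in 11.1% ± 9.1 of neurons, 11.1% ± 7.6 of astrocytes and 9.27% ± 7.61 of oligodendrocytes (SD, n = 3 libraries), at median depths of 2383, 2015 and 1887 UMIs. Thinned to 1000 UMIs, these shares were 5.07% ± 3.08, 4.51% ± 2.24 and 4.19% ± 3.75. The shares in astrocytes and oligodendrocytes were at the level of those in neurons. In library 2, 1 neuron held 37 C1qa UMIs. Whether the counts in these classes are background or expression was not tested.

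Against neurons, edgeR called C1qa (log2 0.59, adjusted p = 0.0360) and C1qb (log2 0.998, adjusted p = 0.00428) higher in astrocytes. It called C1qa (log2 0.79, adjusted p = 0.0128), C1qb (log2 0.97, adjusted p = 0.00524) and C1qc (log2 0.83, adjusted p = 0.0200) higher in oligodendrocytes. In these comparisons 61.8% and 64.1% of all genes tested passed. The calls were lost when the libraries were scaled by their total counts, with C1qa at 0.05 (adjusted p = 0.858) and 0.09 (adjusted p = 0.733), and without the library block. Leaving out any 1 library ended the C1qa call in astrocytes (log2 0.60 to 0.67). In oligodendrocytes the C1qa call was lost without library 1 (log2 0.63) or 3 (log2 0.76), that of C1qc without library 1 (log2 0.80) or 3 (log2 0.57), and that of C1qb without library 1 (log2 0.67). Total-count scaling moved the median of all genes by -0.54 and -0.70 on the log2 scale. It also changed the share of calls that were higher in the glia from 48.2% to 30.5% for astrocytes and from 49.6% to 26.0% for oligodendrocytes.

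The make-up of the C1q counts differed between the phagocytes. C1qb made up 35.2%, 37.8% and 34.0% of the C1q UMIs in the microglia of libraries 1 to 3 and 41.7%, 40.2% and 42.2% in the macrophages, and these ranges did not overlap. Pooled, the share was 36.3% (exact binomial 95% interval 35.4 to 37.2) in microglia and 41.1% (39.6 to 42.7) in macrophages. In neurons it was 32.6%, 42.2% and 46.4% in libraries 1 to 3, in oligodendrocytes 43.8%, 43.7% and 43.2% and in astrocytes 44.8%, 43.4% and 53.5%. The neurons of library 1, with 95 C1q UMIs, lay below every microglia value, and those of library 2 held 2386 of the 2701 C1q UMIs of neurons. The intervals cover counting error only, and with 3 libraries on each side the difference was given no test of its own.

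**Figure D3:**
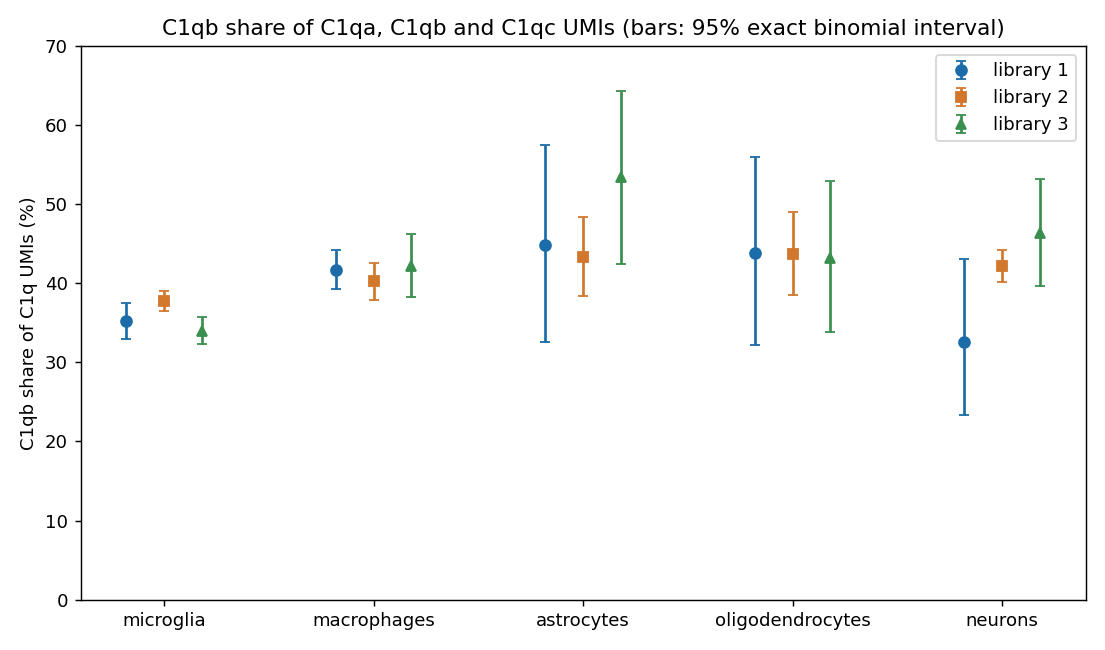
C1qb as a share (%) of the summed C1qa, C1qb and C1qc UMIs in 5 classes, 1 symbol per library with its exact binomial 95% interval. Microglia lie between 34.0% and 37.8%, below the macrophages at 40.2% to 42.2%.

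C4b, which encodes the C4 that C1s cleaves, followed a different pattern and was the most abundant of the 9 genes in astrocytes and oligodendrocytes. It was at 855, 458 and 533 CPM in the astrocytes of libraries 1 to 3 and at 879, 383 and 524 CPM in the oligodendrocytes. Both classes were highest in library 1 and lowest in library 2, and their ranges overlapped. Together they held 40.5% and 43.0% of all C4b UMIs. Precursors were at 545, 105 and 125 CPM, of which the first rests on 8 UMIs, 6 of them in 1 cell. Neurons were at 21.2, 18.9 and 12.6 CPM, below every astrocyte and oligodendrocyte value.

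C4b was higher than in neurons by 5.60 on the log2 scale in astrocytes (SE 0.28, edgeR adjusted p = 4.96e-06) and by 5.67 in oligodendrocytes (SE 0.33, edgeR adjusted p = 2.51e-08). Between astrocytes and oligodendrocytes the difference was 0.01 (SE 0.21, edgeR adjusted p = 0.979), which does not show that the levels are equal. A C4b UMI was seen in 66.7% ± 11.8 of astrocytes and 57.7% ± 13.2 of oligodendrocytes, against 4.26% ± 1.33 of neurons (SD, n = 3 libraries). After thinning to 1000 UMIs the shares were 43.0% ± 9.5, 38.3% ± 9.8 and 1.84% ± 0.47. Microglia stood at 44.2, 110 and 122 CPM and macrophages at 13.8, 60.6 and 217 CPM, with overlapping ranges. Reads shared with the near-identical C4a could not be separated here, so the C4b counts are uncertain in that respect.

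C3, the central component, was sparse. Macrophages had 62.2, 60.6 and 34.2 CPM, from 27 UMIs in 19 of 276 cells. The last value rests on 3 UMIs in 1 of 30 cells. Fibroblasts had 57.4, 56.7 and 0 CPM from 4 UMIs. Astrocytes had 9.08, 20.5 and 5.24 CPM, from 37 UMIs in 20 of 1010 cells. Microglia had 1 C3 UMI in 317 cells. C3 did not pass the filter on low counts in any comparison. Without the filter edgeR put it 4.27 lower on the log2 scale in microglia than in macrophages (log2 -4.27, adjusted p = 0.0267) and 3.41 higher in astrocytes than in oligodendrocytes (adjusted p = 0.000950). C2, the protease partner of C4, had 22 UMIs in all kept cells, at most 22.8 CPM in any class and library, and no class could be set apart.

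The receptor genes were seen in both phagocyte classes. C3ar1, for the C3a receptor, was at 191, 275 and 122 CPM in microglia and at 166, 222 and 217 CPM in macrophages, and the ranges overlapped. C5ar1, for the C5a receptor, was at 88.3, 197 and 146 CPM in microglia and at 34.6, 162 and 297 CPM in macrophages, where 1 cell of library 3 held 10 of 26 UMIs. The difference of microglia from macrophages was -0.14 for C3ar1 (SE 0.29, edgeR adjusted p = 0.807) and -0.17 for C5ar1 (SE 0.34, edgeR adjusted p = 0.793) on the log2 scale. With Leiden clusters in place of the gate, C3ar1 was lower in microglia by log2 -0.86 (edgeR adjusted p = 0.0327). In neurons C3ar1 stood at 2.66, 6.17 and 0 CPM and C5ar1 at 0, 2.09 and 0.991 CPM. A C3ar1 UMI was seen in 17.9% ± 3.2 of microglia and 24.9% ± 10.2 of macrophages, against 0.689% ± 0.907 of neurons (SD, n = 3 libraries). Thinned to 1000 UMIs the order of the phagocytes turned, with 19.8% ± 4.0 of microglia and 13.7% ± 0.5 of macrophages, against 0.283% ± 0.290 of neurons, so no order is read from these shares.

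Serping1, for the C1 inhibitor, had its highest CPM in fibroblasts and mural cells, while astrocytes, a larger class, held 36.1% of its UMIs against 22.1% in mural cells and 10.1% in fibroblasts. It was at 517, 586 and 1271 CPM in fibroblasts, the last from 5 cells with 11 of 17 UMIs in 1 cell, and at 267, 333 and 427 CPM in mural cells, the pericytes and smooth muscle cells around vessels. Astrocytes followed at 90.8, 78.9 and 60.3 CPM and oligodendrocytes at 6.53, 18.8 and 6.32 CPM. Endothelial cells had 0, 17.2 and 0 CPM, and macrophages had no Serping1 UMI among 276 cells, which by 3 counts allows up to 1.09% of cells with a UMI and sets no limit on cells that express the gene. The ranges of fibroblasts, mural cells and astrocytes did not overlap.

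Serping1 was higher in mural than in endothelial cells by 5.38 on the log2 scale (SE 0.51, edgeR adjusted p = 1.29e-06), in a comparison where 32.4% of 4176 genes passed. The summed fibroblast markers moved with it, at 3367 to 5311 CPM in mural cells (7 of 8 seen, Lum at 0) against 190 to 620 CPM in endothelial cells (7 of 8 seen, Fbln1 at 0) and 11660 to 22794 CPM in fibroblasts. Most of the mural sum was Mgp (mean 3265 CPM), and the part of fibroblast RNA in the Serping1 difference was not tested. Fibroblasts exceeded endothelial cells by 5.46 (SE 0.64, edgeR adjusted p = 0.00505), where 13.2% of genes passed. That comparison rests on libraries 1 and 2 with 15 and 25 fibroblasts, because library 3 had 5, and the edgeR adjusted p was 0.0628 with total-count scaling, 0.134 with no filter on low counts and 0.0688 with a gate lead of 1 marker. Total-count scaling also moved the share of calls higher in fibroblasts from 43.5% to 66.3%. Astrocytes exceeded oligodendrocytes by 2.66 (SE 0.33, edgeR adjusted p = 2.08e-08), where 45.8% of 9476 genes passed, and neurons by 5.61 (SE 0.46, edgeR adjusted p = 2.64e-05).

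In the same comparison of mural with endothelial cells, C1qb (log2 1.25, edgeR adjusted p = 0.00794) and C1qc (log2 1.03, edgeR adjusted p = 0.0442) also passed. C1qb was at 600, 239 and 7.49 CPM in mural cells and at 150, 120 and 10.8 CPM in endothelial cells, higher in 2 of 3 libraries. Of the 18 C1qb UMIs in the mural cells of library 1, 10 were in 1 cell, and 14 of 43 were in 1 cell of library 2. The summed macrophage markers in mural cells ranged from 37.5 to 900 CPM over the libraries, and their part in the C1q counts was not tested. Both calls were lost when any 1 library was left out, with C1qb between 0.89 and 1.62 and C1qc between 0.84 and 1.13 on the log2 scale.

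Other complement genes were taken from a list of 49, of which 47 were in the files. Microglia exceeded macrophages in Itgam, a chain of complement receptor 3 (log2 2.58, edgeR adjusted p = 4.13e-07). Cfp, for properdin, which stabilises the alternative pathway enzyme, was lower in microglia (log2 -5.01, edgeR adjusted p = 9.78e-07). These were the 1 higher and 1 lower of 5 tested, where 19.5% of all genes tested passed.

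Astrocytes exceeded oligodendrocytes in Clu, for clusterin (4537 against 109 CPM, log2 5.29, edgeR adjusted p = 6.55e-18), and C1ra, a C1r protease gene (log2 1.87, edgeR adjusted p = 0.0266). Cd59a, an inhibitor of the membrane attack complex (log2 -3.52, edgeR adjusted p = 9.88e-11), Csmd3 (log2 -3.47, edgeR adjusted p = 4.01e-07) and Cd59b (log2 -1.48, edgeR adjusted p = 0.0337) were lower in astrocytes, so that 2 were higher and 3 lower of 8 tested, where 45.8% of all genes passed. Mural cells exceeded endothelial cells in Vtn, for vitronectin (4524 against 32.6 CPM, log2 7.23, edgeR adjusted p = 2.09e-09), Colec12, a scavenger collectin (log2 4.23, edgeR adjusted p = 1.72e-05), and C1s1, a C1s protease gene (log2 2.42, edgeR adjusted p = 0.000877). These were the 3 higher genes of 8 tested, and Cd93 (log2 -4.61) and Cd59a (log2 -2.94) were the 2 lower ones, where 32.4% of all genes passed. Against endothelial cells, fibroblasts had 2 higher and 2 lower of 6, where 13.2% of all genes passed and the fit rests on 2 libraries. Colec12 (log2 5.69, edgeR adjusted p = 0.00347) and Vtn (log2 4.84, edgeR adjusted p = 0.00390) were higher. Cd93 (log2 -4.53, edgeR adjusted p = 0.00989) and Cd59a (log2 -2.82, edgeR adjusted p = 0.0325) were lower.

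Against neurons, 3 of 11 genes tested were higher and 4 lower in astrocytes, and 4 of 11 were higher and 5 lower in oligodendrocytes. Of all genes tested 61.8% and 64.1% passed there, so the share in astrocytes is near the background. With 11 genes tested, neither count is read as a result about the list. Higher in astrocytes were Clu (log2 5.38, edgeR adjusted p = 7.77e-06), C1ra (9.32 against 0.294 CPM, log2 4.53) and Cr1l (log2 1.56). Cd59a (log2 3.66, edgeR adjusted p = 2.37e-07), Cr1l (log2 2.01) and Cd59b (log2 1.48) led the higher genes in oligodendrocytes. Susd4, a membrane regulator of complement, was lower in astrocytes (log2 -3.62, edgeR adjusted p = 3.10e-05) and oligodendrocytes (log2 -3.97, edgeR adjusted p = 3.24e-06). Csmd1, of a family of complement regulators, was at 65.9 CPM in neurons against 4.52 in astrocytes (log2 -3.21) and 1.97 in oligodendrocytes (log2 -4.01). Csmd3 had the largest lower change in astrocytes (log2 -4.61, edgeR adjusted p = 8.96e-05), and Csmd2 was also lower in oligodendrocytes (log2 -1.46).

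**Figure D4:**
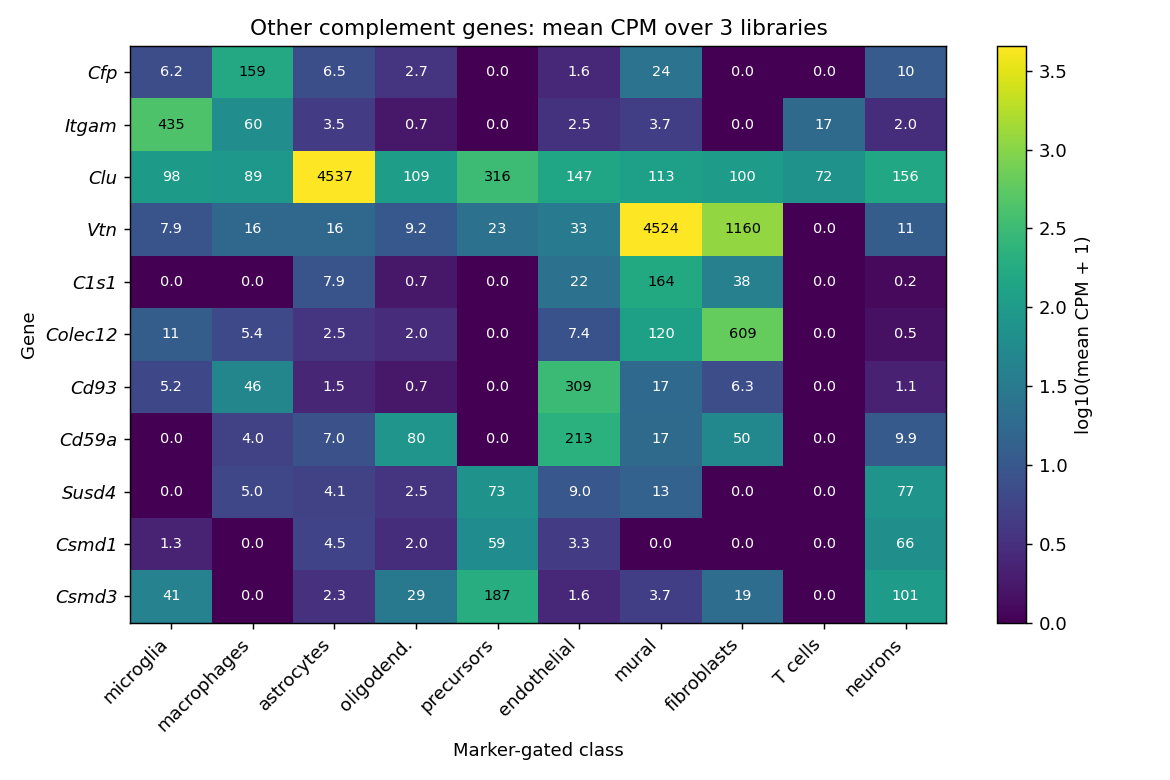
Mean CPM over 3 libraries (numbers, with colour on a log10 scale) of 11 other complement genes in each class. Clu is highest in astrocytes at 4537 CPM, Vtn in mural cells at 4524 CPM, and Itgam in microglia at 435 CPM.

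Across the 28 class by library sums, the genes most like each member in log2(CPM + 10) were named by Pearson's r, as a description without a test, since sums of a library share its depth. They were Fcrls (0.95), Tyrobp (0.95) and Fcgr3 (0.95) for C1qa, Ctss (0.96), Tyrobp (0.96) and Ly86 (0.96) for C1qb, and Ly86 (0.97), Pld4 (0.96) and Lat2 (0.96) for C1qc. C3ar1 was most like Fcer1g (0.96), Cd84 (0.93) and Lst1 (0.92), and C5ar1 most like Cd86 (0.98) and Lrch4 (0.98). For C4b they were Cela1 (0.88), Il18 (0.87) and Phlda3 (0.86), and for Serping1 Gpx8 (0.96), Prelp (0.95) and Sod3 (0.95). C3 (Tgfbi 0.77, Anxa1 0.76 and Napsa 0.74) and C2 (E230001N04Rik 0.76, Irak3 0.74 and Tlr11 0.74) had weaker neighbours. Between members, r was 0.97 for C1qa and C1qb, 0.90 for C1qa and C3ar1, and -0.14 for C1qa and C4b.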

How the data were processed

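The authors deposited raw UMI counts of 3 libraries (10x Genomics 3′ v2) as 1 matrix, made with Cell Ranger 3.0 on mm10 per the submitters' processing notes. The library is the barcode suffix, which nothing ties to a numbered replicate. The members, lists and markers were chosen with earlier results of these data known. A cell needed 300 detected genes and could have up to 20% of its UMIs from mitochondrial genes, which 10291 passed, and the 44, 296 and 28 cells with the highest Scrublet scores in libraries 1 to 3 were removed as doublets. Counts were summed per library and class and tested with edgeR 4.0.16 in R 4.3.3 (TMM, filterByExpr, robust quasi-likelihood fit, library block, Benjamini-Hochberg over all genes tested, threshold 0.05). An arm needed 10 cells in a library. The fit was tested on counts simulated with large fold changes, a fixed spread and no library effect. In 5 of the 6 comparisons it called most of the changed genes, at the least 162 of 183, in mural against endothelial cells. In fibroblasts against endothelial cells, which has 2 libraries, it called 0 of 172, whereas the real data gave 317 calls among 2397 genes. Power in that comparison is therefore not shown, and why the real and simulated data differed was not tested. With total-count scaling the real data gave 65 higher and 33 lower calls there, in place of 138 and 179. All 9 members were named, with up to 3 other complement genes each way by size of change, same direction in every library, and the 3 genes most like each member. The results of 2 genes that this rule covers are not reported here and are left out of the counts of other complement genes. Alternatives included DESeq2 1.42.0, other gates, Leiden clusters, deeper cells and doublets kept.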

Additional observations from a re-analysis of the deposited data

How the results depend on the processing

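Levels are limited by few cells and few UMIs, above all for C2, C3, fibroblasts and T cells, and by 3 libraries. Of 810 mean levels recomputed, 787 moved by no more than 1 SD between libraries. The 810 include levels with 1 library left out, which cannot move by more than 1 SD of the 3 values. That part of the count was fixed in advance, so the count is no measure of stability. No replicate block left 0 members passing in microglia over macrophages, 1 in mural over endothelial cells, 2 in astrocytes over neurons and 1 in oligodendrocytes over neurons. In astrocytes over oligodendrocytes 2 members passed in place of 1 with no low-count filter, with DESeq2, with all classes in 1 fit, with cells of at least 1000 UMIs and with doublets kept. In mural over endothelial cells 1 passed in place of 3 with no low-count filter, DESeq2, all classes in 1 fit and clusters, and 1 without any 1 library. In fibroblasts over endothelial cells 0 passed with no low-count filter and, as choices made after seeing the data, with total-count scaling or a lead of 1 marker. Leaving out a library was not possible there, nor was the depth limit. Total-count scaling left 2 in astrocytes over neurons and 1 in oligodendrocytes over neurons, where 2 passed with all classes in 1 fit. Leaving out a library gave 2 to 4 there, and 3 to 5 in astrocytes over neurons. The uncalled C4b difference of astrocytes from oligodendrocytes turned to -0.049 with no low-count filter, -0.045 with a lead of 1 marker and -0.073 with clusters, and ranged from -0.016 to 0.12 without a library. C3ar1 in microglia over macrophages turned to 0.024 with total-count scaling and ranged from -0.42 to 0.13 without a library, and C5ar1 from -0.51 to 0.35. Total-count scaling moved the share of calls higher in microglia from 53.5% to 67.0%. For the splits by a member, DESeq2 called 2 genes in macrophages, 1 in oligodendrocytes and 0 in astrocytes, and leaving out a library gave 0 to 23 and 0 to 7 in the latter 2. Why these values changed was not tested.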

Other observations

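Cells were split by whether a member had a UMI after thinning to 1000 UMIs, and the 2 sets of cells were compared within a class with the library as a block. These splits were chosen after seeing the data. Of 4 set up, 3 were fitted and microglia with C4b (1, 11 and 3 cells) were too few. The gene used for the split is left out of each count.

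Oligodendrocytes with C4b differed from those without in 13 of 2426 genes (0.536%). Apod (14526 against 9982 CPM, log2 0.57, edgeR adjusted p = 4.75e-07), the serine protease gene Klk6 (1866 against 1267 CPM, log2 0.60, edgeR adjusted p = 2.63e-05) and the protease inhibitor gene Serpina3n (1096 against 708 CPM, log2 0.67, edgeR adjusted p = 7.96e-05) were higher. So were the class I genes H2-T23 (log2 1.52, edgeR adjusted p = 0.000662) and H2-K1 (log2 1.013, edgeR adjusted p = 0.00154), all in 3 of 3 libraries. DESeq2 called 1 gene, and leaving out a library gave 0 (without library 2) to 23 calls.

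Macrophages with C1q differed from those without in 33 of 418 genes (7.89%) over libraries 1 and 2, where DESeq2 called 2. Ctsb (4816 against 512 CPM, log2 3.48, edgeR adjusted p = 1.21e-20) and Apoe (60698 against 4410 CPM, log2 3.92, edgeR adjusted p = 3.61e-06) were higher with C1q, and Tmsb10 was lower (log2 -1.61, edgeR adjusted p = 7.36e-06). Markers of cell types moved with the split. The gate marker Ms4a7 (log2 3.23) and the phagocyte genes Csf1r (410 against 21.7 CPM, log2 3.91), Trem2 (1041 against 176 CPM, log2 2.93) and Gpnmb (847 against 21.7 CPM, log2 4.68) were called higher with C1q. Only 13 and 23 cells of libraries 1 and 2 were without C1q. The 21.7 CPM of Csf1r and Gpnmb, and so the size of their changes, rest on very few UMIs. The gate marker H2-Aa (log2 -0.94), H2-Eb1 (log2 -1.02), Cst3 (log2 -1.35), Naaa (log2 -3.17) and Plac8 (log2 -3.62), the last from the monocyte and neutrophil list, were called lower. The part of dendritic cells and monocytes in this split was not tested. Astrocytes with C4b differed in 7 of 2280 genes (0.307%), DESeq2 called 0, and without library 1 or 3 edgeR called 1 or 0.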
